A study of Mus musculus with 4 samples.

Results

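The genes described here are the neighbours of Pdcd1, the gene that encodes PD-1, on mouse chromosome 1. They are all genes of the deposited expression table whose start lies between 92000000 and 98000000 on chromosome 1 of the mm10 build, with Pdcd1 itself and without Kif1a and Ndufa10. Of 74 rows in that interval 72 were kept, out of 30637 genes in the table. The rule used positions and these 2 names, and no expression value.

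The series was made to study Pd1 in the growth and differentiation of neural progenitors of the developing brain. RNA was sequenced from telencephalic tissue, the part of the forebrain that gives rise to the cerebral cortex and basal ganglia, of C57BL/6 embryos at embryonic day 13. The 2 conditional knockouts, Pd1CKO 1 and Pd1CKO 2, were set against 2 controls, control 1 and control 2. The sample titles call the controls wild type, while the series' design calls them Pd1fl/fl, mice that carry the floxed allele without a stated Cre. The Cre line, and so the cells in which the allele is recombined in the knockouts, is not named in the labels. Levels are in FPKM, in which fragment numbers are divided by exon length and by the size of the library, so that genes can be compared per length. The labels do not say whether the libraries came from separate litters, so the p-values cover the spread between these 4 samples alone, which may be technical.

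PD-1 is an inhibitory receptor best known from T lymphocytes. Its ligands PD-L1, encoded by Cd274, and PD-L2, encoded by Pdcd1lg2, engage it, and its cytoplasmic tail then recruits the phosphatase SHP2, encoded by Ptpn11, which dampens signalling from the antigen receptor. In a conditional knockout, loxP sites flank a part of the gene and Cre recombinase removes it. Neighbouring genes can share promoters, enhancers and chromatin domains with an edited locus, which is why their expression is often looked at beside that of the targeted gene.

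The FPKM steps implied 18740000 and 18100000 counted fragments in Pd1CKO 1 and Pd1CKO 2, against 18570000 and 16200000 in control 1 and control 2. All 8 telencephalon markers examined were expressed, and summed to 467 and 315 FPKM in the Pd1CKO libraries and to 452 and 302 FPKM in the control libraries. The libraries fell apart by replicate number more than by genotype, with 81.6% of the variance on the first principal component, which separated libraries 1 from libraries 2. In Pd1CKO 2, 4 Y-linked genes summed to 34.1 FPKM and Xist had 0.00308 FPKM. In the other libraries the Y-linked genes summed to at most 0.0189 FPKM and Xist had 34.7 to 61.2 FPKM. This is the pattern of male tissue in Pd1CKO 2 and of female tissue in the other libraries. Pd1CKO 2 and control 2 thus differ in sex as well as in genotype. Control 2 stood apart in choroid plexus genes, which summed to 18.1 FPKM there and to 196 to 338 FPKM in the other libraries. In bulk tissue, fewer cells of a type and less RNA per cell cannot be told apart.

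Pdcd1 lies at 94038305 to 94052553 on the minus strand of chromosome 1. No fragment of it was counted in either Pd1CKO library. Of the controls, control 1 also had 0 fragments, and control 2 had 13 fragments, or 0.416 FPKM, with an exact Poisson 95% interval of 6.92 to 22.2 fragments. For a count of 0 the same exact interval reaches 3.69 fragments. A set bound of 3 fragments was used here. It stands for 0.083 and 0.0859 FPKM in Pd1CKO 1 and Pd1CKO 2 and for 0.0837 FPKM in control 1. The control libraries thus differed from each other as much as any of them from a knockout, and the level of Pdcd1 does not check the genotype labels. The deposited values are 1 per gene, so they do not show whether the floxed part is transcribed. The 8 markers of T lymphocytes summed to 2.3 and 2.18 FPKM in Pd1CKO 1 and Pd1CKO 2, against 2.15 and 2.71 FPKM in control 1 and control 2, nearly all of it from the kinase gene Lck, with 1.75 to 2.66 FPKM. Cd3e, Cd3d, Cd3g, Cd8a and Cd28 had at most 4 fragments in any library, Cd4 at most 11 and Ptprc 10 to 22.

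The promoter of Pdcd1 is shown because the locus around it defines the group. The window runs from 250 bases before to 50 bases after the RefSeq start of the gene, chr1:94052504-94052803 on the minus strand of GRCm38.p6, with each CG dinucleotide in capitals. It holds 5 CG dinucleotides, the letters CG being the same on both strands. Over all 32851 promoters of the table the median was 7, and 62% held at least as many as Pdcd1. The sequence TATAAA does not occur in this window on either strand, and 13.6% of all promoter windows hold it.
Pdcd1: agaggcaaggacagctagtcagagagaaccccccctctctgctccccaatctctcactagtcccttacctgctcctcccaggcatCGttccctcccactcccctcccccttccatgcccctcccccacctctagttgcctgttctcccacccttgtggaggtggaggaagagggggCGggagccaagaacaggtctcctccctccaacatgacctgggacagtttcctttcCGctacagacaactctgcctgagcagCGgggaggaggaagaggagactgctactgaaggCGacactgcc

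The neighbourhood is uneven around Pdcd1. Of the other members, 50 lie on the side of lower coordinates and 21 on the other side, where the nearest is the pseudogene Gm7895 at 417 kb and the nearest tested gene is Fam174a at 1261 kb. Within 250 kb lie 9 members including Pdcd1. Protein-coding genes make up 41 of the 72 members, and the rest are pseudogenes, antisense and long intergenic RNAs and small RNA genes. A mean of at least 1 FPKM over the 4 libraries, the limit for testing, was met by 26 members, 22 of them protein-coding. The lowest of these was Gm28901 with a mean of 1.04 FPKM, and the highest member left out, Farp2, had 0.851 FPKM. At the edges of the interval, the first member Gm7837 had 0 and 1 fragments in the Pd1CKO libraries and 0 in both controls, and the last member Gm3531 had 256 and 169 fragments in the Pd1CKO libraries and 217 and 154 in the controls. Just outside, Gm37048 had 3 and 0 fragments in the Pd1CKO libraries and 1 and 0 in the controls, and B230216N24Rik had 59 and 93 in the Pd1CKO libraries and 86 and 90 in the controls.

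**Figure D1:**
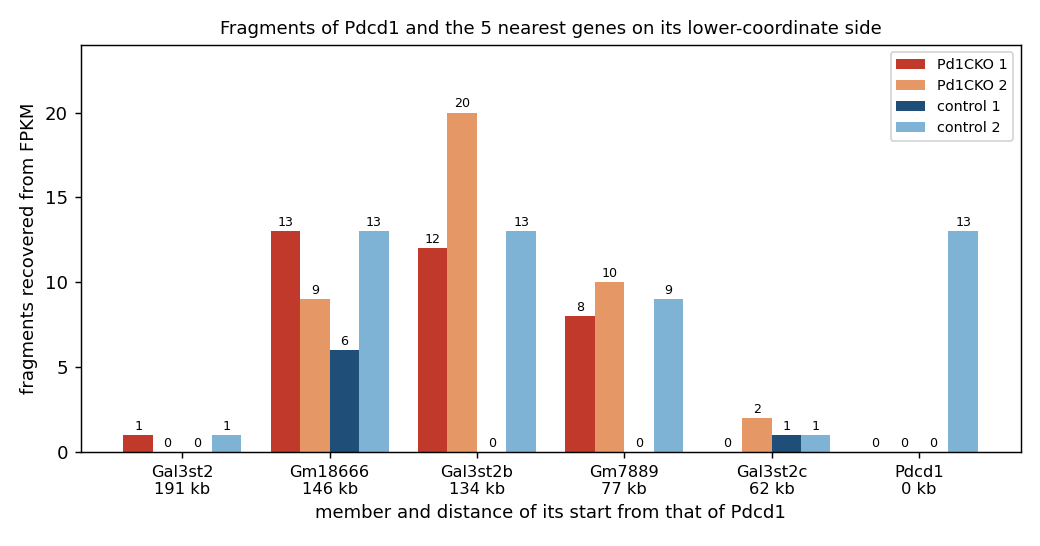
Fragments recovered from FPKM (vertical axis) for Pdcd1 and the 5 members nearest to it, with the distance of their start from that of Pdcd1 in kb; bars are the 2 Pd1CKO and the 2 control libraries. Control 2 alone has Pdcd1 fragments, 13 of them, and control 1 has none of Gal3st2b and Gm7889, which have 8 to 20 in the other libraries.

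The genes next to Pdcd1 were close to silent. The sulfotransferase genes Gal3st2c and Gal3st2, which encode enzymes that add sulfate to galactose on glycans, had at most 2 fragments in any library. Their near-identical relative Gal3st2b had 12 and 20 fragments in Pd1CKO 1 and Pd1CKO 2, against 0 and 13 in control 1 and control 2. The pseudogene Gm7889 had 8 and 10 fragments in the Pd1CKO libraries, against 0 and 9 in the control libraries. Control 1 stood apart for both. The 0 of control 1 was bounded at 3 fragments, with the Pd1CKO 1 fragments taken without error. By this bound alone, the FPKM ratio of Pd1CKO 1 to control 1 was at least 3.97 for Gal3st2b and at least 2.64 for Gm7889. The exact 95% counting interval of this ratio, which covers the error of both libraries, began at 2.75 for Gal3st2b and 1.69 for Gm7889. In the other pair, the ratio of Pd1CKO 2 to control 2 was 1.38 for Gal3st2b, with an exact 95% counting interval of 0.652 to 3.01, and 0.994 for Gm7889, with an interval of 0.363 to 2.76. Gal3st2 and Gal3st2b are 99.6% identical, and Gm7889 and Gm18666 are 99.4% identical, so the authors' counting may have split their reads.

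The nearest expressed genes, Ing5 at 249 kb and D2hgdh at 228 kb, were expressed in every library. Ing5, a reader of methylated histone H3 in acetyltransferase complexes, had 5.76 and 4.22 FPKM in Pd1CKO 1 and Pd1CKO 2, against 4.58 and 4.11 FPKM in control 1 and control 2. It was higher in both pairs, but the groups overlapped, and the limma log2 difference was 0.15 with a standard error of 0.23. D2hgdh, the mitochondrial dehydrogenase of D-2-hydroxyglutarate, had 1.95 and 1.56 FPKM in the Pd1CKO libraries, against 3.37 and 1.54 FPKM in the control libraries. Control 1 was the high library, and the other 3 lay close together. The fold within number 1 was 0.577 with a counting interval of 0.471 to 0.706, and within number 2 it was 1.01, with 0.774 to 1.32. The pseudogenes Gm18666 and Gm7889 match D2hgdh over 59.2% of their length at 99.6% and 99.1% identity. Summed over the 3 genes, 177 and 140 fragments were counted in the Pd1CKO libraries, against 274 and 129 in the control libraries, and control 1 was the highest library of this sum as well. Markers of the diencephalon, the forebrain part behind the telencephalon, were also highest in control 1. The 6 genes summed to 12.4 and 11.2 FPKM in Pd1CKO 1 and Pd1CKO 2, against 42.8 and 13.4 FPKM in control 1 and control 2, 4 of the 5 tested ones were lower in Pd1CKO in both pairs, and none was at 0. Their part in the level of D2hgdh was not tested.

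No member passed the test between the genotypes. Of the 26 tested members, 0 had an adjusted p under 0.05 in limma, where 0% of the 13927 genes tested did, and each member had an adjusted p of 0.9998. At an unadjusted p under 0.05 the counts were 0 members and 47 genes, or 0.337%. With the replicate number as a block, 5 genes passed, or 0.0359%, and 0 of them were members, and at an unadjusted p under 0.05 the counts were 0 members and 4.46% of genes. In limma-voom on recovered fragments 0 of 40 members and 0 of 17627 genes passed, with 57 genes, or 0.323%, and 0 members at an unadjusted p under 0.05. The 95% intervals of the log2 difference reached 0.63 to either side at the median over members, from 0.50 for Rnpepl1 to 1.95 for Gm26446. For 18 of the 26 members the interval lay between -1 and 1 on the log2(FPKM + 1) scale, which for members of low level allows a change of more than 2-fold in FPKM.

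The direction of the members was close to that of all genes. Libraries that share a number are called a pair here, and 8 members (30.8%) were higher in Pd1CKO in both pairs, against 28.2% of the tested genes. Lower in both pairs were 4 members (15.4%), against 23.5% of the genes, and the other 14 had opposite signs in the pairs, as had 48.1% of genes. The median log2 difference of Pd1CKO and control was 0.04 over the members and 0.02 over all tested genes. Both Pd1CKO libraries lay above both controls for 1 member, Cops9, against 8.37% of genes, and below them for 2 members, Stk25 and Gin1, against 6.14% of genes.

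The pairs differed in how far members moved. In pair 2 the log2 ratio was within 0.2 of 0 for 25 of 26 members (96.2%), against 84% of all tested genes, and the exception was the small RNA gene Gm26446. In pair 1 it was so for 14 members (53.8%), against 54.1% of genes. The ratio exceeded counting error upward for 9 members in pair 1 and 2 in pair 2, where 32.1% and 10.8% of genes did, and downward for 7 in pair 1 and 1 in pair 2, where 23.2% and 9.92% of genes did. The autophagy protease gene Atg4b was alone among the tested members in exceeding it in the same direction in both pairs, downward, as did 2.72% of genes. Counting intervals and bounds cover counting error only.

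**Figure D2:**
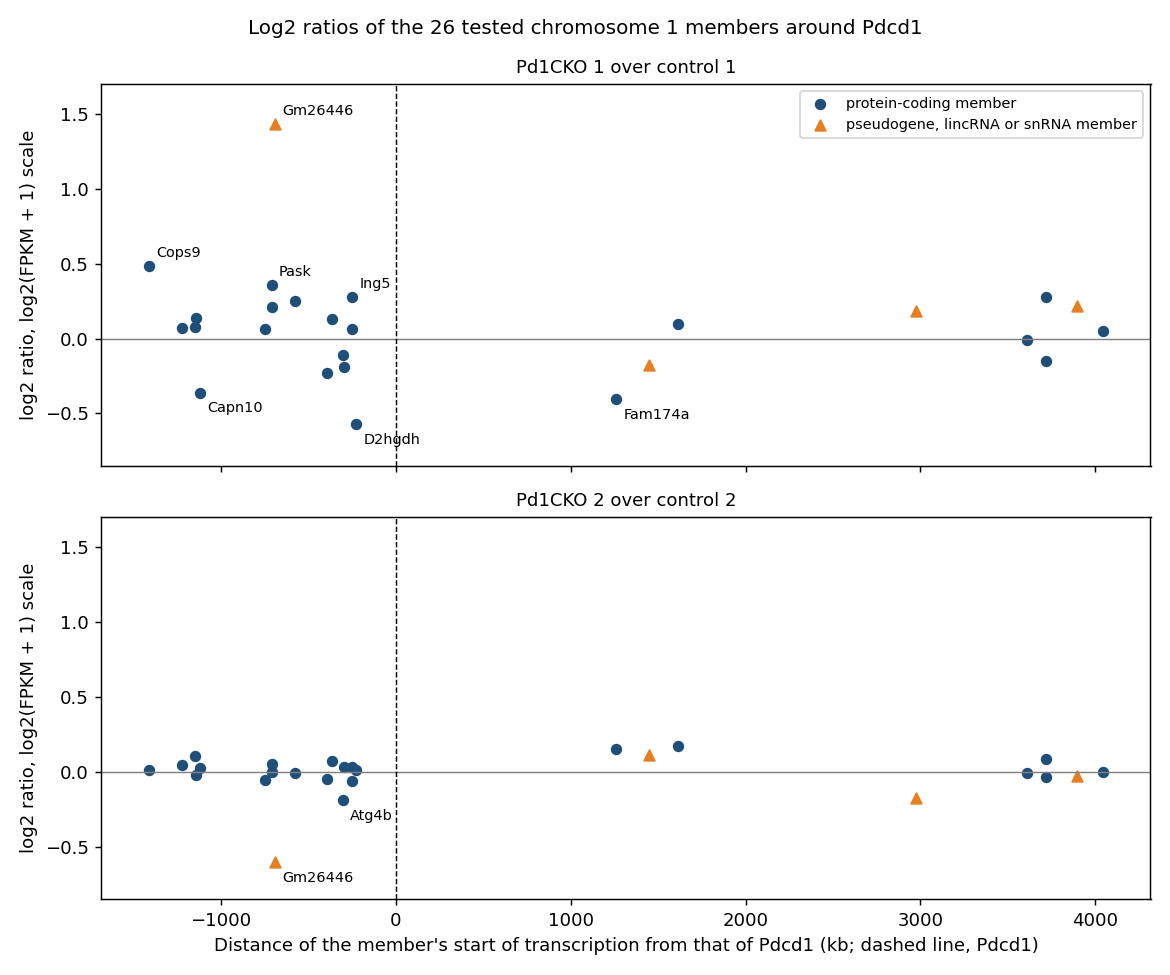
Log2 ratio, Pd1CKO over control, of FPKM + 1 (vertical axis) against the distance from the start of Pdcd1 in kb (horizontal axis) for the 26 tested members, in pair 1 (upper panel) and pair 2 (lower panel). Apart from Gm26446 at 1.43 and -0.60, the points of pair 1 run from -0.57 for D2hgdh to 0.48 for Cops9, while those of pair 2 stay between -0.19 and 0.17 at every distance.

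By distance from Pdcd1 the values are a description only. Over the 26 tested members, the Spearman correlation of distance with the size of the log2 ratio was -0.246 in pair 1 and -0.022 in pair 2, across genes that share the same libraries. Among the 10 tested members from 250 kb to 1 Mb away, the median log2 ratio was 0.10 in pair 1 and -0.03 in pair 2. Among the 14 farther ones it was 0.07 in pair 1 and 0.02 in pair 2.

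Genes of RNA binding, transcription and chromatin made up 6 members, all tested, and 0 passed the test, while 2 were higher in both pairs and 1 was lower in both. Cops9, a subunit of the COP9 signalosome that removes NEDD8 from cullins, lies at 92637145 to 92641985, 1411 kb from Pdcd1. It had 24.4 and 19.0 FPKM in Pd1CKO 1 and Pd1CKO 2, against 17.2 and 18.9 FPKM in control 1 and control 2. The 2 groups did not overlap, but Pd1CKO 2 and control 2 were almost level and Pd1CKO 1 was the high library. The log2 difference was 0.25 with a standard error of 0.22, and the interval ran from -0.33 to 0.83. Hdlbp, which encodes the RNA-binding protein vigilin, had 20.01 and 18.6 FPKM in the Pd1CKO libraries, against 16.7 and 18.7 FPKM in the control libraries. Control 1 was the low library there. Mterf4, needed to assemble mitochondrial ribosomes, ranged over the 4 libraries from 2.89 to 3.57 FPKM, and Thap4, a zinc-finger protein gene, from 2.64 to 3.32 FPKM. Of the exon bases of Mterf4, 35.2% overlap Sned1 on the opposite strand, and the sources used here do not give whether counting was by strand. In all, 12 of the 26 tested members have exons that overlap another gene.

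Of 4 genes of cell death, autophagy and proteolysis, all tested, 0 passed, 1 was higher in both pairs and 1 was lower in both. Atg4b, the protease that processes the autophagy protein LC3, lies at 93751500 to 93790610. It had 9.15 and 10.9 FPKM in Pd1CKO 1 and Pd1CKO 2, against 9.93 and 12.5 FPKM in control 1 and control 2. Pd1CKO was lower within each number, by a fold of 0.921 with a counting interval of 0.856 to 0.991 in pair 1 and of 0.869 with 0.811 to 0.931 in pair 2, yet the groups overlapped because both number 2 libraries were higher. The log2 difference was -0.15 with a standard error of 0.22. Capn10, a calpain protease gene, had 12.2 and 14.4 FPKM in the Pd1CKO libraries, against 16.0 and 14.2 FPKM in the control libraries. Pd1CKO 1 was its lowest library and control 1 its highest, and pair 2 was level. Bok, a pro-apoptotic member of the BCL-2 family, was higher in both pairs, with 36.9 and 22.6 FPKM in the Pd1CKO libraries and 33.7 and 21.5 FPKM in the control libraries. The aminopeptidase gene Rnpepl1 had 7.89 and 7.001 FPKM in the Pd1CKO libraries, against 7.09 and 7.11 FPKM in the control libraries.

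Kinases, phosphatases and metabolic enzymes, 8 members with D2hgdh, were all tested and 0 passed. Stk25, a kinase of the Golgi with a role in neuronal polarity in rodents, had 30.01 and 33.7 FPKM in Pd1CKO 1 and Pd1CKO 2, against 35.4 and 34.9 FPKM in control 1 and control 2. Both Pd1CKO libraries were below both controls, and the log2 difference was -0.14 with a standard error of 0.19. Pask, a kinase with a PAS domain, had 3.69 and 2.24 FPKM in the Pd1CKO libraries, against 2.66 and 2.13 FPKM in the control libraries. Ppp1r7, a regulatory subunit of protein phosphatase 1, starts 628 bases inside Pask on the opposite strand, and had 8.09 and 8.07 FPKM in the Pd1CKO libraries, against 6.86 and 8.08 FPKM in the control libraries. Both genes were higher in Pd1CKO 1 than in control 1, Pask by a fold of 1.39 with a counting interval of 1.23 to 1.57, and Ppp1r7 by 1.18 with 1.09 to 1.27. In pair 2 the log2 ratios were 0.05 for Pask and -0.0015 for Ppp1r7, and both counting intervals held a fold of 1.

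By the deposited coordinates, Ppip5k2 and Gin1 form the other head-to-head pair of tested members, with starts 239 bases apart and overlapping. The promoter windows are placed by RefSeq starts, and that of Ppip5k2 differs from the deposited one. Ppip5k2, a kinase that makes inositol pyrophosphates, had 5.13 and 6.38 FPKM in Pd1CKO 1 and Pd1CKO 2, against 4.07 and 5.95 FPKM in control 1 and control 2. Gin1, a gene derived from the integrase of a retrotransposon, had 1.44 and 1.71 FPKM in the Pd1CKO libraries, against 1.71 and 1.78 FPKM in the control libraries. Ppip5k2 was higher and Gin1 lower in Pd1CKO in both pairs, with log2 differences of 0.18 and -0.09 and standard errors of 0.26 and 0.21. These genes share promoter sequence, so their windows are printed, chr1:97770043-97770342 on the minus strand for Ppip5k2 and chr1:97769922-97770221 on the plus strand for Gin1. Capitals mark the 179 bases that both windows hold, read from opposite strands. The windows hold 22 and 29 CG dinucleotides, as many as or more than which 23.1% and 12.9% of all promoter windows hold, and no TATAAA.
Ppip5k2: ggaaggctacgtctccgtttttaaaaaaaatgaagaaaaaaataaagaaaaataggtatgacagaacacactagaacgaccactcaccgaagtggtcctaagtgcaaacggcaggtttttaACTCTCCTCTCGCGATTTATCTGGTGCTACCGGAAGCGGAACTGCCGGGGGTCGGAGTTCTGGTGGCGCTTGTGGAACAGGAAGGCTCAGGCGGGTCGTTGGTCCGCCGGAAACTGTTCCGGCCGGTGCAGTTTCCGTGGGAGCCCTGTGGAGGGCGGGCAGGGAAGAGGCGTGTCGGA
Gin1: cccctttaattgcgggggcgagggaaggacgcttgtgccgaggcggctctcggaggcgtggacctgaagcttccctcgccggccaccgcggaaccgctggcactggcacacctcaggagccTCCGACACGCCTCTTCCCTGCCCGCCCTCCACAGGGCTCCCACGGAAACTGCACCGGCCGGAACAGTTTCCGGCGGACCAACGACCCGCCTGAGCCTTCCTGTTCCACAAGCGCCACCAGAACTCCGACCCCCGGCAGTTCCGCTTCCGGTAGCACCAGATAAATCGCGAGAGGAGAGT

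By the deposited coordinates, Rnpepl1 and the antisense RNA gene 5033417F24Rik start only 19 bases apart on opposite strands. These are the closest starts among the 7 head-to-head pairs of members. The windows are placed by the RefSeq starts of both genes, which differ from the deposited ones, so the shared bases do not follow from this distance. The windows are chr1:92910575-92910874 on the plus strand for Rnpepl1 and chr1:92910640-92910939 on the minus strand for 5033417F24Rik, with the 235 shared bases in capitals. They hold 45 and 49 CG dinucleotides, and 1.93% and 1.02% of all promoter windows hold at least as many. 5033417F24Rik had 21 and 41 fragments in Pd1CKO 1 and Pd1CKO 2, against 12 and 22 in control 1 and control 2. It was higher within each number, by a fold of 1.73 with a counting interval of 0.815 to 3.87 in pair 1 and 1.67 with 0.97 to 2.94 in pair 2, and the groups overlapped. Its partner Rnpepl1 had folds of 1.11 in pair 1 and 0.984 in pair 2.
Rnpepl1: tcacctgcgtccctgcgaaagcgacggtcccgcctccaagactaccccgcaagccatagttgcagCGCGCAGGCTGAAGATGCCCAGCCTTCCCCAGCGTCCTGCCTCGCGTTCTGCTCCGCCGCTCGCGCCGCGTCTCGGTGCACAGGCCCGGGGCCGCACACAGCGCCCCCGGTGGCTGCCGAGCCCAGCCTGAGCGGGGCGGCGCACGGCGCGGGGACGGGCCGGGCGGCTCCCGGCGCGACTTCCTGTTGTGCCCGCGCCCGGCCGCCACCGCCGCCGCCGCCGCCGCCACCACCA
5033417F24Rik: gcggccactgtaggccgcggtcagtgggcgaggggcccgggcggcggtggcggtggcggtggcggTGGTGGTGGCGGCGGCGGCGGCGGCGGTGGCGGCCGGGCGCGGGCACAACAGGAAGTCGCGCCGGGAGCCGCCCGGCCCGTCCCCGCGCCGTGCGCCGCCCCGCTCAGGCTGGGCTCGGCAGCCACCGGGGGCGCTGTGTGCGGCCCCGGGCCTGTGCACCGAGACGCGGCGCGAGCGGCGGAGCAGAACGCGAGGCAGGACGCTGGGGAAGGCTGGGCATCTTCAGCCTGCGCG

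Of 8 members of the cell surface, matrix and glycosylation, 3 were tested and 0 passed, with 2 higher in both pairs. Gpc1, the heparan sulfate proteoglycan glypican-1 that binds growth factors and in the mouse affects brain size, was the most strongly expressed protein-coding member and lies at 92831645 to 92860779. It had 91.1 and 51.0 FPKM in Pd1CKO 1 and Pd1CKO 2, against 86.8 and 49.4 FPKM in control 1 and control 2. The values followed the replicate number. St8sia4, which builds polysialic acid on the neural cell adhesion molecule, had 1.56 and 2.15 FPKM in the Pd1CKO libraries, against 1.40 and 1.80 FPKM in the control libraries. It was higher within each number and the groups overlapped, with a pair 1 fold of 1.11 whose counting interval held 1 and a pair 2 fold of 1.19 with an interval of 1.07 to 1.33. The cytoskeletal and trafficking genes counted 5 members, of which Stk25 alone was tested. Of 9 receptor and transporter members, 3 of them olfactory receptors, 0 were tested.

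The most abundant member was no protein-coding gene but Gm15427, a processed pseudogene with 176 and 172 FPKM in Pd1CKO 1 and Pd1CKO 2, against 199 and 160 FPKM in control 1 and control 2. Its pair folds lay on opposite sides of 1, with counting intervals of 0.83 to 0.946 in pair 1 and 1.01 to 1.16 in pair 2. Gm3531 is 99.2% identical to the gene Btf3. It had 27.9 and 19.1 FPKM in the Pd1CKO libraries, against 23.9 and 19.4 FPKM in the control libraries. Reads of processed pseudogenes such as these and of near-identical genes elsewhere cannot be told apart with certainty. Gm26446, a small nuclear RNA gene of 103 bases, rested on 6 and 6 fragments in the Pd1CKO libraries, against 1 and 9 in the control libraries, and its 4 values overlapped. The long intergenic RNA gene Gm28901 rested on 15 and 4 fragments in the Pd1CKO libraries and 12 and 5 in the control libraries. It matches Hnrnpf over 86.5% of its transcript at 99.5% identity, so reads of these genes cannot be told apart with certainty either. Of the exon bases of Gm28901, 85.7% overlap the Hnrnpf copy Gm6430 on the opposite strand, and whether counting was by strand is not given. D1Ertd622e had 1.21 and 1.19 FPKM in the Pd1CKO libraries, against 1.23 and 1.20 FPKM in the control libraries, the narrowest range of the tested members.

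**Figure D3:**
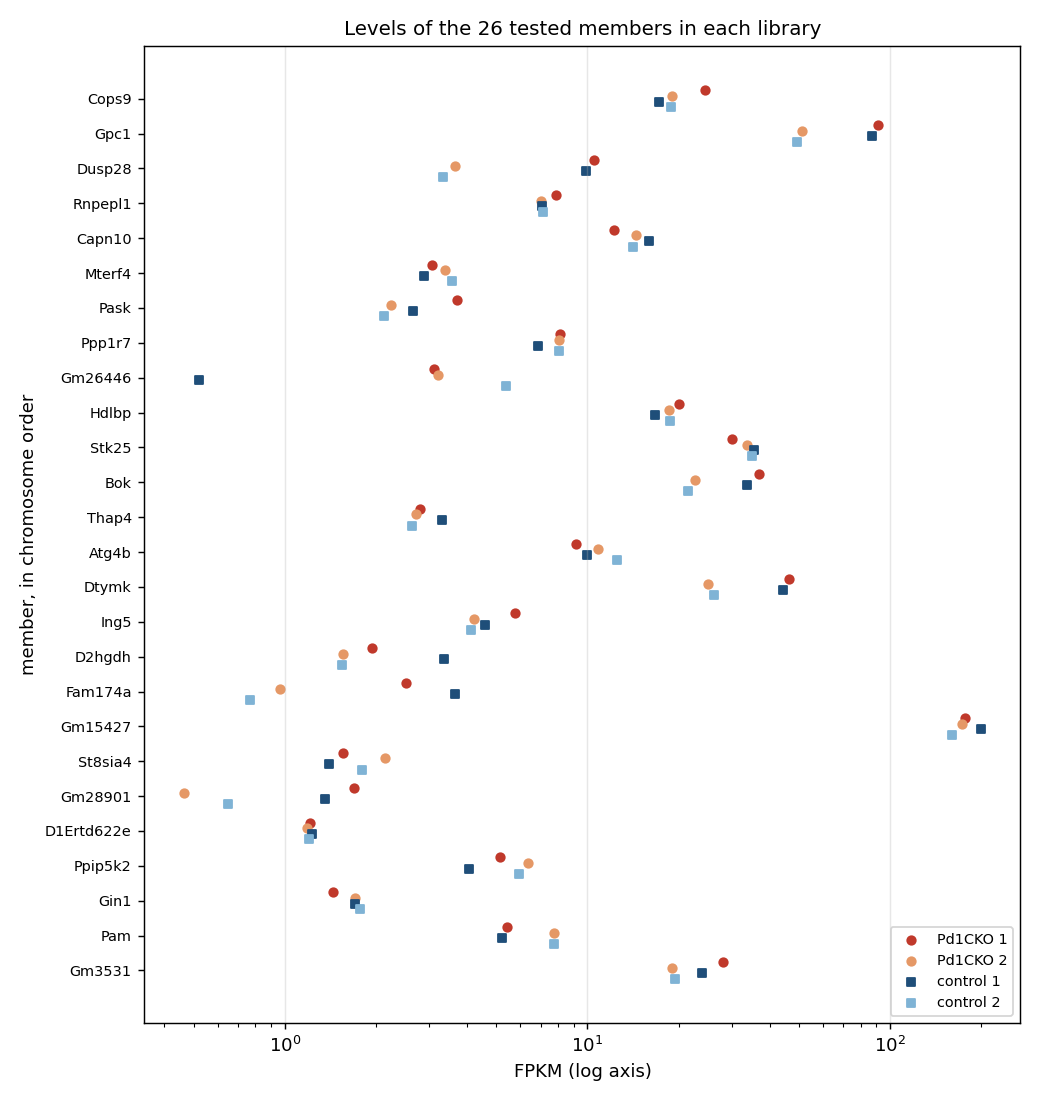
FPKM on a log axis (horizontal) of the 26 tested members in chromosome order (vertical), circles for the Pd1CKO libraries and squares for the control libraries. Levels span from 0.466 FPKM for Gm28901 in Pd1CKO 2 to 199 FPKM for Gm15427 in control 1, and for Gpc1, Dusp28, Bok and Dtymk the symbols of number 2 lie together to the left of those of number 1.

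Below the limit for testing lay 46 members, 19 of them protein-coding. Of these, 26 had under 10 fragments in every library and 24 had 0 in at least 1 library. Sned1, which encodes a secreted matrix protein, had the most fragments among them, with 214 and 106 in Pd1CKO 1 and Pd1CKO 2, against 92 and 91 in control 1 and control 2. Pd1CKO 1 was the single high library, so that the fold was 2.31 in pair 1, with a counting interval of 1.8 to 2.98. In pair 2 it was 1.04, with 0.78 to 1.39. Of the exon bases of Sned1, 19.6% overlap other genes, Mterf4 on the opposite strand and another gene on the same strand. Markers of the meninges, the membranes that cover the brain, were highest in Pd1CKO 1 as well. The 5 genes summed to 54.2 and 2.16 FPKM in Pd1CKO 1 and Pd1CKO 2, against 31.8 and 1.49 FPKM in control 1 and control 2, 4 of 5 were higher in Pd1CKO in both pairs, and none was at 0. Their part in the level of Sned1 was not tested.

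Sept2, a septin of the cytoskeleton, had 65 and 68 fragments in Pd1CKO 1 and Pd1CKO 2, against 29 and 62 in control 1 and control 2. Control 1 was the low library, the pair 1 fold was 2.22 with a counting interval of 1.41 to 3.57, and the pair 2 fold was 0.981 with 0.685 to 1.41. Of its exon bases, 41.8% are shared with another gene on the same strand, whose reads may have been set aside or split. Crocc2, of the rootletin family of ciliary rootlet proteins, had 34 and 52 fragments in the Pd1CKO libraries, against 29 and 18 in the control libraries, and was the only untested member other than Pdcd1 whose pair 2 ratio exceeded counting error, at 2.58 with 1.49 to 4.69. Its pair 1 fold was 1.16 with 0.687 to 1.98. Markers of the choroid plexus, a ciliated epithelium of the brain ventricles, were lowest in control 2 as well. The 5 genes summed to 269 and 338 FPKM in Pd1CKO 1 and Pd1CKO 2, against 196 and 18.1 FPKM in control 1 and control 2, the 4 tested ones were higher in Pd1CKO in both pairs, and none was at 0. Their part in the level of Crocc2 was not tested. Farp2, an exchange factor for small GTPases that acts in semaphorin signalling, had 73 and 90 fragments in the Pd1CKO libraries, against 70 and 84 in the control libraries.

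Other untested members had few fragments. Gm7895, a copy of Ppm1b, had 10 and 6 in Pd1CKO 1 and Pd1CKO 2, against 2 and 5 in control 1 and control 2. Gm28535, which starts 49 bases from Mterf4, had 3 and 8 in the Pd1CKO libraries, against 15 and 5 in the control libraries. Gm6430, a copy of Hnrnpf, had 11 and 12 in the Pd1CKO libraries, against 24 and 11 in the control libraries. In these genes the pair 1 ratio exceeded counting error, with intervals of 1.06 to 46.5, 0.0368 to 0.701 and 0.201 to 0.963, and the pair 2 ratio did not. The receptor gene Gpr35 had 11 and 21 fragments in the Pd1CKO libraries, against 16 and 22 in the control libraries. Between 3 and 19 fragments were counted in each library for Otos, Gm29480, Ankmy1, 9430060I03Rik, Gm18666 and BC055308. Gm22089 and Gm22360 rested on 2 fragments or fewer.

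In the authors' deposited table of genes with a ratio of Pd1CKO 1 to control 1 above 2, 8 members are listed, 11.1% of the members and 0.467% of the 1714 genes listed, where 5.59% of all genes are listed. In the authors' deposited table the ratios are 5.95 for Gm26446, 4.96 for Gm7895, 3.97 for Gm29483, 2.97 for Gm29481 and Slco6b1, 2.31 for Sned1, 2.22 for Sept2 and 2.15 for Gm18666. Of these 8 members, 1 met the limit for testing, and Sned1 and Sept2 alone rested on more than 15 fragments in any library.

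The replicate number separated the members far more than the genotype did. With number as the only term, 8 of 26 tested members (30.8%) passed the test between libraries 2 and libraries 1, where 35% of the 13927 genes did. Of these, 7 members (26.9%) were lower and 1 (3.85%) was higher in number 2, against 18.5% and 16.5% of genes. Scaled to TPM, which moved the median of all genes from 0.03 to 0.14 on the log2 scale, 60.3% of the genes called were higher in number 2, against 47.2% in FPKM. Both number 2 libraries lay below both number 1 libraries for 13 members (50%), against 34.1% of genes, and above them for 6 members (23.1%), against 38.5%. Without control 2, 5 members and 2560 genes passed, and without Pd1CKO 2, 6 members and 2993 genes passed. The labels do not say what the number stands for.

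Dusp28, a dual-specificity phosphatase gene at 92906981 to 92908435, fell in number 2, with 3.66 and 3.34 FPKM in Pd1CKO 2 and control 2, against 10.5 and 9.87 FPKM in Pd1CKO 1 and control 1. Its log2 difference was -1.31 with a standard error of 0.10 and a limma adjusted p of 0.001408. Gpc1 fell in number 2 by 0.81 on the log2 scale, with a limma adjusted p of 0.002633. Dtymk, the kinase that phosphorylates thymidylate for DNA synthesis, lies at 93792576 to 93801934, 251 kb from Pdcd1. It had 25.02 and 26.1 FPKM in Pd1CKO 2 and control 2, against 46.2 and 44.1 FPKM in Pd1CKO 1 and control 1, and its limma adjusted p was 0.002854. Within each number the genotypes of Dtymk were close, with folds of 1.05 and 0.959 whose counting intervals held 1.

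Bok fell in number 2 by 0.65 on the log2 scale, with a limma adjusted p of 0.005945. Fam174a, which encodes a membrane protein, had 0.964 and 0.769 FPKM in Pd1CKO 2 and control 2, against 2.52 and 3.66 FPKM in Pd1CKO 1 and control 1, with a limma adjusted p of 0.009165. Its log2 difference was smaller than that of Dusp28 on the log2(FPKM + 1) scale, at -1.12, but larger with a pseudocount of 0.1, with TPM scaling and in limma-voom, where it was -1.802 against -1.53 for Dusp28. The pseudogene Gm3531 and the long intergenic RNA gene Gm28901 also fell in number 2, with limma adjusted p of 0.03466 and 0.02633. Hnrnpf, which Gm28901 matches, had 72.6 and 72.0 FPKM in Pd1CKO 2 and control 2, against 93.9 and 101.5 FPKM in Pd1CKO 1 and control 1. Btf3, which Gm3531 matches, had 192.4 and 193.3 FPKM, against 174.1 and 208.8 FPKM. The part of reads from Hnrnpf and Btf3 in these 2 calls was not tested. Pam, which amidates the carboxy terminus of peptide hormones and neuropeptides, was the member that rose. It had 7.75 and 7.77 FPKM in Pd1CKO 2 and control 2, against 5.41 and 5.20 FPKM in Pd1CKO 1 and control 1, a log2 difference of 0.47 with a standard error of 0.10 and a limma adjusted p of 0.01686. Gm3531, Gm28901 and Pam no longer passed without control 2, nor without Pd1CKO 2. Ppip5k2 and Atg4b had the next smallest p among members higher in number 2, and their log2 differences of 0.36 and 0.26 did not pass, with limma adjusted p of 0.08533 and 0.1165. Ppip5k2 passed in limma-voom, with an adjusted p of 0.0487, and without Pd1CKO 1, with a limma adjusted p of 0.0179, and its adjusted p ran up to 0.39 over the other alternatives.

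Some marker lists moved with the number too. The meninges list summed to 2.16 and 1.49 FPKM in Pd1CKO 2 and control 2, against 54.2 and 31.8 FPKM in Pd1CKO 1 and control 1, with 5 of 5 genes lower in both number 2 libraries and all 5 past the test. Of the 8 telencephalon markers, 6 were lower in both number 2 libraries and 5 passed the test. Of the erythroid markers 3 of 4 passed and of the microglia markers 1 of 5, where 35% of all tested genes passed. The erythroid markers went both ways, with 3 lower and 1 higher in both number 2 libraries. Hbb-bs was the higher one, with 544.9 and 569.8 FPKM in Pd1CKO 2 and control 2, against 175.2 and 190.1 FPKM in Pd1CKO 1 and control 1. Of the choroid plexus, diencephalon and T lymphocyte markers 0 of 4, 0 of 5 and 0 of 1 tested passed. The part of these markers in the difference of the members was not tested. In limma-voom on recovered fragments, which reached 40 members, the transporter gene Slco4c1 and the antisense RNA gene Panct2 passed as well as Ppip5k2, with adjusted p of 0.0279 and 0.0313. Slco4c1 had 13 and 17 fragments in Pd1CKO 2 and control 2, against 0 and 4 in Pd1CKO 1 and control 1. Panct2 had 11 and 11 fragments in number 2, against 3 and 2 in number 1. Their starts lie next to each other, 2820 and 2819 kb from that of Pdcd1.

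Elsewhere in the genome, 13 of the 14 genes listed for the PD-1 pathway were in the table, 4 were tested and 0 passed between the genotypes. Rgmb, which encodes a binding partner of PD-L2, was the 1 gene higher in both pairs, with 23.1 and 24.4 FPKM in Pd1CKO 1 and Pd1CKO 2, against 21 and 24.3 FPKM in control 1 and control 2. Ptpn11 had 24.6 and 23.0 FPKM in the Pd1CKO libraries, against 17.3 and 24.7 FPKM in the control libraries, with control 1 as the low library. The ligand gene Cd274 had 15 and 40 fragments in the Pd1CKO libraries, against 16 and 50 in the control libraries, and Pdcd1lg2 had at most 1 in any library.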

How the data were processed

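RNA enriched with oligo(dT) was sequenced in 4 libraries, 2 Pd1CKO and 2 control. The submitters' processing notes name mm10 as the build and list featureCounts, StringTie, HISAT2, TopHat, fastp and FastQC, without versions or roles. The deposited values are FPKM made by the authors, with no unit in the header. They were read as FPKM because, multiplied by exon-union length in Gencode M21, 97.3% to 97.5% of values below 200 fragments were whole within 0.1, which also gave the depth of 16200000 to 18740000 fragments. A further deposited table holds the authors' linear ratio of Pd1CKO 1 to control 1, made without a pseudocount.

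Genotypes were compared with limma 3.58.1 (limma-trend) in R 4.3.3 on log2(FPKM + 1), over the 13927 genes whose mean reached 1 FPKM, genotype being the only term, two-sided, with Benjamini-Hochberg adjustment over all of them at 0.05. This scale understates changes of low genes. The replicate numbers were compared in the same way. Pair ratios of fragments carry exact 95% Clopper-Pearson intervals, and 0 was bounded at 3 fragments per library. Near-identical transcripts were searched with BLAST 2.17.0 (at least 95% identity over 50% of the member), and all 72 members were found in Gencode at the same coordinates. Promoters are from RefSeq, where 45 members matched. The genotype fit, without and with the replicate block, was also run on simulated data with known changes. The simulated data held no difference between replicate numbers, so the run does not bear on the calls given here. Tables and figures were made with scipy 1.17.1, numpy 2.4.6, pandas 2.3.3 and matplotlib 3.10.9 in Python 3.11.15.

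The members, gene lists and naming rule were chosen with earlier results of these data known. Named are Pdcd1, tested members within 250 kb, the 4 smallest p in each direction between genotypes, the 3 highest levels, the 3 smallest p in each direction between numbers, tested head-to-head pairs (starts within 1 kb), and untested members with 10 fragments or over 0.5 FPKM in some library. Other members were named after their values were seen, to account for each role. Alternatives were another pseudocount, filter, scaling or tool, the replicate block, each library left out, and, chosen after seeing the data, protein-coding members only.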

Additional observations from a re-analysis of the deposited data

How the results depend on the processing

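With 4 libraries, and replicate numbers that differ far more than genotypes, the intervals are wide. Under every alternative tried, 0 members passed between the genotypes. Depth limits the 46 untested members, most of which rest on too few fragments for a fold. The pair comparisons have 1 library a side. The median-ratio scaling, the TPM scaling and the limma-voom fit on fragments also differ in which genes reach the test, and the cause of the changes listed here was not tested.

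With the replicate number as a block, 5 genes passed between the genotypes, and 0 with the block and the trends of length and GC (loess, span 0.5) removed. Libraries that share a number deviated together, with a correlation of 0.799 over the tested genes and 0.702 over the members, but the labels do not say that a number marks a shared litter or day, and with 2 pairs the samples share only a number. The block changed no call of a member.

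Members higher in both pairs numbered 21 of 72 with no filter and 5 of 15 at a mean of at least 5 FPKM. They numbered 13 of 38 with TPM scaling, 15 of 40 in limma-voom and 3 of 12 within 1 Mb of Pdcd1. Members lower in both numbered 10 of 72 with no filter and 2 of 15 at 5 FPKM. In limma-voom they numbered 7 of 40, and within 1 Mb 2 of 12. The share of all genes under these settings is not given here. The median log2 difference of the members was 0.11 with TPM scaling, where that of all genes was 0.05, and ran from -0.035 to 0.12 with 1 library left out. Between the numbers, 5 members and 2976 genes passed with no filter, 2 members within 1 Mb, and 5 to 11 members and 2560 to 6916 genes with 1 library left out.

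Fam174a, Gm28901 and Gm3531 lost the call between numbers with no filter, Gm28901 and Gm3531 in limma-voom and Gm3531 with TPM scaling, while Ppip5k2 gained it in limma-voom. Log2 differences near 0 changed sign. Between genotypes these were -0.016 for Mterf4, -0.021 for Dtymk and -0.0059 for Gm28901 with median-ratio scaling, -0.0062 for Gm28901 and 0.0091 for D1Ertd622e with TPM scaling, -0.059 and -0.086 for Gm28901 with a pseudocount of 0.1 and in limma-voom, and -0.022 for Mterf4, 0.0069 for Gm15427, -0.058 for St8sia4, -0.0049 for Gm28901 and -0.064 for Pam with the replicate block and length and GC trends removed. Between numbers they were 0.011 for Cops9, 0.0404 for Rnpepl1 and 0.076 for D1Ertd622e with TPM scaling, and -0.0035 for Hdlbp with median-ratio scaling.

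Leaving out 1 library leaves a genotype with a single library, assumed to vary like the other group, and sets genotype partly against number. The log2 difference between genotypes then ran from -0.35 to 0.47 for Gpc1, -0.57 to 0.75 for Dusp28, -0.018 to 0.13 for Rnpepl1, -0.11 to 0.12 for Mterf4, -0.064 to 0.47 for Pask, -0.0005 to 0.21 for Ppp1r7, -0.62 to 1.45 for Gm26446, -0.24 to 0.44 for Bok, -0.20 to 0.044 for Thap4, -0.30 to 0.005 for Atg4b, -0.43 to 0.43 for Dtymk, -0.034 to 0.34 for Ing5, -0.67 to 0.11 for D2hgdh, -0.83 to 0.57 for Fam174a, -0.19 to 0.13 for Gm15427, -0.018 to 0.28 for St8sia4, -0.25 to 0.45 for Gm28901, -0.048 to 0.41 for Ppip5k2, -0.23 to 0.27 for Pam and -0.17 to 0.36 for Gm3531. Between numbers it ran from -0.35 to 0.13 for Cops9, -0.15 to 0.21 for Capn10, -0.0013 to 0.21 for Ppp1r7, -0.10 to 0.15 for Hdlbp and -0.046 to 0.19 for Stk25.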
